A study of Mus musculus with 3 samples.

Results

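The genes of calmodulin, calcineurin and the calmodulin-dependent kinase Camk4 were followed through mouse spermatogenesis. Of the 31053 genes in the count tables, 7 were taken by their symbols: Calm2 and Calm3 (calmodulin), Ppp3ca and Ppp3cc (catalytic subunits of calcineurin), Ppp3r1 and Ppp3r2 (regulatory subunits) and Camk4. They were chosen for stage patterns already seen in these libraries, so their levels along the stages are given as a description without a test. Testicular cells of adult C57BL/6 mice were profiled in 3 single-cell libraries, 1 of wild type (WT), 1 lacking the testicular RNA helicase GRTH (KO) and 1 with a knock-in of a mutated human GRTH gene (KI) whose protein is not phosphorylated. The labels give an age of 8 weeks and 1 mouse per library, whereas the study's methods give an older upper age and pooled mice. No cells were sorted. With 1 library per genotype no test between genotypes was possible, and all intervals below are 95% intervals that cover counting error alone.

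The libraries held 73150373 to 91388296 UMIs (unique molecular identifiers, each counting 1 captured transcript), and 5863 WT, 4063 KO and 1572 KI cells were kept. In round spermatid-like cells the targeted gene Ddx25, which encodes GRTH, had 1785 UMIs in the WT library, 1279 in KI and 0 in KO, where a count of 0, here and below read as at most 3 counts, allows up to 0.320 CPM (counts-per-million, the UMIs of a gene as a share of all UMIs of the cells). The SP-like cells of KO held 10 UMIs of it, beside 4226 for WT and 2227 for KI. In CPM, WT and KI stood at 140 and 144 in the round spermatid-like cells and at 221 and 89.1 in the SP-like cells. Cells of WT had a median mitochondrial share of 0.0582%, against 1.64% for KO and 1.33% for KI, so the WT library stood apart. Of the cell barcodes kept, 16 were shared between WT and KO, 36 between WT and KI and 8 between KO and KI. Random draws from the listed barcodes would give 3.51, 1.36 and 0.940, and the cause of the excess was not tested. Leaving the cells with shared barcodes out changed none of the counts of members past a fold given below. Clusters were named from marker genes as spermatogonium-like (SG-like), spermatocyte-like (SP-like), round spermatid-like (RS-like) and elongated spermatid-like (ES-like), and 4 clusters that their markers did not place stayed unnamed.

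Calmodulin is a small protein that binds calcium and then switches on other enzymes. Among these are calcineurin, a phosphatase made of a catalytic A subunit and a calcium-binding B subunit, and the CaM kinases, of which CAMK4 acts in the nucleus of neurons, T cells and male germ cells. The catalytic subunit from Ppp3cc and the regulatory subunit from Ppp3r2 form the calcineurin that sperm carry, which is needed for the midpiece of the sperm tail to become flexible, whereas Ppp3ca and Ppp3r1 are used in most tissues. The Camk4 gene also gives rise to calspermin, a testis transcript that starts inside the gene and shares its 3′ end, so that counts taken at 3′ ends cannot separate the 2 products.

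On GRCm38, Calm2 lies at chr17:87433412-87446935 and Calm3 at chr7:16915379-16924114, both on the minus strand, and their coding sequences of 450 bases were identical at 372 positions (82.7%) while encoding the same 149 residues. Ppp3ca lies at chr3:136670124-136937727 on the plus strand and Ppp3cc at chr14:70217865-70289471 on the minus strand, with 77.9% of their aligned residues identical. Ppp3r1 spans 41113 bases in 6 exons at chr11:17159263-17200375 on the plus strand, whereas Ppp3r2 spans 3278 bases in 2 exons at chr4:49678747-49682024 on the minus strand. The encoded regulatory subunits of 170 and 179 residues were identical at 137 of 170 aligned residues (80.6%). Ppp3r2 lies within the span of Grin3a on the same strand but shares no exon base with it. Ppp3r1 shares 462 of its 3228 exon bases with Wdr92 on the same strand, and reads there may have been lost or split, so its level is less certain than the others. Positions and exons are those of GENCODE M21.

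RefSeq upstream sequences (GRCm38.p6) were held for 3 of the 7 genes, Calm3, Ppp3r1 and Ppp3r2. They are shown because the 2 regulatory subunit genes had their highest levels at different stages, and because Ppp3r2 and Calm3 were at their highest at the same stage. The bases before the annotated start of each gene are given 5′ to 3′ on the strand of the gene, at chr11:17159048-17159262 for Ppp3r1, chr4:49682025-49682233 for Ppp3r2 and chr7:16924115-16924282 for Calm3, with CG dinucleotides in capitals.
Ppp3r1: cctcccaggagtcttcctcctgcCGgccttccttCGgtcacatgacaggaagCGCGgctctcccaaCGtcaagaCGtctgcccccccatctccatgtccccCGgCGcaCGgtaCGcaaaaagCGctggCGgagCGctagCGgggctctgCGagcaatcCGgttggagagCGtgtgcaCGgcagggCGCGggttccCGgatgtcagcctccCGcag
Ppp3r2: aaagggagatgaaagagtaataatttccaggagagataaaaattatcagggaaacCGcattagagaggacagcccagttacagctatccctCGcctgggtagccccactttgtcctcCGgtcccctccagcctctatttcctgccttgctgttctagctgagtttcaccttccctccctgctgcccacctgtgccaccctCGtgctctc
Calm3: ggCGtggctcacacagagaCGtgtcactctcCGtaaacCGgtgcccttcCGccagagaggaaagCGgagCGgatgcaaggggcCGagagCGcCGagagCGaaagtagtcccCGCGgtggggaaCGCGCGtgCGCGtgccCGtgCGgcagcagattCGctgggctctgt
The 215 bases of Ppp3r1 held 22 CG dinucleotides, a number reached by 9.39% of the 32851 upstream sequences of the same length, and the 168 bases of Calm3 held 21, reached by 4.76%. The 209 bases of Ppp3r2 held 4, which was the median of all sequences of that length. The full cAMP response element TGACGTCA was in none of the 3, and 0.478% to 1.10% of all sequences of these lengths held it. Its part TGACG occurred once in either orientation, before Ppp3r1, where 14.4% of all sequences of that length held it, and neither before Ppp3r2 (13.8%) nor before Calm3 (9.70%). The CCAAT box was on neither strand of the 3 windows (held by 22.8% to 30.4% of all sequences of these lengths). The same held for the GC box GGGCGG (19.2% to 27.7%). The TATA box letters TATAAA were absent there too (8.01% to 9.75%). These are matches of letters within short windows and show no binding.

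Cells of 13 clusters from a finer clustering were placed in 13 positions from the earliest to the latest by marker genes. Of these, 1 and 2 were early SP-like, 3 to 5 SP-like, 6 and 7 unnamed between spermatocytes and round spermatids, 8 RS-like and 9 to 13 ES-like. Other finer clusters were left out, among them RS-like ones of 1232, 666 and 362 cells and SP-like ones of 638 and 111. In the low-UMI ones of 1232 and 362 cells Camk4 was above its position 8 levels. It had 433 and 562 CPM in WT, 263 and 425 CPM in KO and 367 and 597 CPM in KI. Ppp3r1 was above its position 8 levels in the first (85.6, 57.1 and 71.5 CPM) and below them in the second (16.3, 36.9 and 36.5 CPM). In WT the spermatocyte marker Piwil1 fell from 1124 CPM at position 2 to 5.93 CPM at position 8, the acrosomal gene Acrv1 was at 713 CPM at position 8, and the protamine gene Prm2 reached 196559 CPM at position 13. Positions 1 to 9 held at least 39 cells of every library and are compared below. The study reports that KO and KI testes lack elongated spermatids, so ES-like names a marker profile and not that stage in the mutants. At position 9 Acrv1 was at 164 CPM in WT, 496 CPM in KO and 459 CPM in KI. Prm2 was at 57309, 25464 and 25897 CPM there. A difference in stage and an effect of the genotype on these transcripts cannot be told apart here. Positions 10 to 13 are given for WT alone, since the mutants had few cells there or cells of under 3000 UMIs in the median. CPM are shares of all UMIs, so at the late positions every other gene is a share of a total that protamines take up in part.

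**Figure D1:**
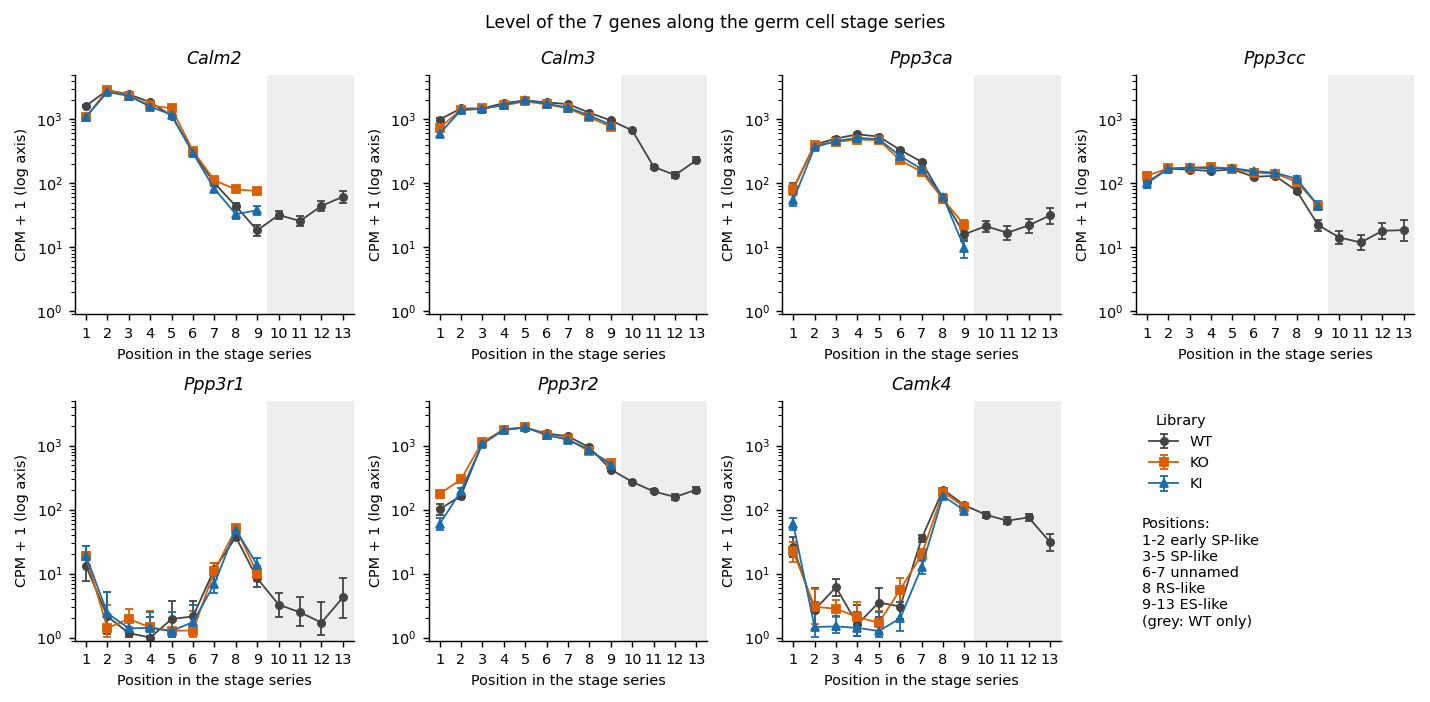
Level of each of the 7 genes as CPM + 1 on a log axis against the position in the stage series, for the WT, KO and KI libraries, with 95% counting intervals as bars and WT alone over the grey positions. Among the positions shown, Calm2 was highest at position 2, Calm3 and Ppp3r2 at position 5, Ppp3ca at position 4, and Ppp3r1 and Camk4 at position 8 in each library.

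Calm2 was the early calmodulin gene. Its level was highest at position 2, the Piwil1-rich early SP-like cells, with 2847 CPM in WT, 2881 CPM in KO and 2658 CPM in KI. It stood at 2452 CPM at position 3, 1850 CPM at position 4 and 1129 CPM at position 5 in WT. By position 6 it was at 303 CPM in WT, 318 CPM in KO and 294 CPM in KI, and the 3 libraries lay close together. At position 8 the levels were 42.9 CPM in WT, 79.3 CPM in KO and 31.9 CPM in KI, and at position 9 they were 17.4, 74.5 and 36.9 CPM, where KO was the highest library at both. Of the 8 pairs of neighbours in the order of Calm2 levels over positions 1 to 9, 2 had ranges over the 3 libraries that overlapped, those of positions 5 and 1 and of positions 8 and 9. Empty barcodes, which carry free RNA, had 394 CPM of Calm2 in WT, 534 CPM in KO and 577 CPM in KI. The levels at positions 6 to 9 lay below these. The largest multiple of the empty-barcode profile that left no gene of 50 CPM or more in it below 0 took up 10.1% of the RS-like UMIs of WT, 7.57% of those of KO and 3.88% of those of KI.

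Calm3 was the calmodulin gene that lasted. Its level rose from 988 CPM in WT, 737 CPM in KO and 594 CPM in KI at position 1 to 1962, 1900 and 1985 CPM at position 5. It was still 1265 CPM in WT, 1072 CPM in KO and 1143 CPM in KI at position 8 and 958, 764 and 819 CPM at position 9. WT was the highest library at positions 6 to 9. Later WT cells had less, with 669 CPM at position 10, 180 CPM at position 11, 133 CPM at position 12 and 229 CPM at position 13. Empty barcodes had 1450 CPM of Calm3 in WT, 1456 CPM in KO and 1371 CPM in KI, above its levels from position 8 on, and the part of free RNA in these was not tested. Neighbours in the order of its levels overlapped in 4 of 8 pairs, so that the order of positions 6, 4 and 7, that of positions 3 and 2 and that of positions 9 and 1 was not resolved.

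The share of Calm2 among the UMIs of Calm2 and Calm3 expressed this change of source. At position 2 it stood at 65.9% for WT (95% exact binomial interval 64.8% to 66.9%), 67.3% for KO and 65.6% for KI. At position 4 the genes were level, with shares of 50.8%, 49.9% and 48.2%. Calm2 gave 36.5% of the UMIs at position 5 in WT and 5.46% at position 7. At position 8 it was 3.28% for WT, 6.89% for KO and 2.71% for KI, and at position 9 it was 1.78%, 8.89% and 4.31%. Both genes together fell from 4322 CPM at position 2 to 1308 CPM at position 8 in WT, from 4279 to 1151 CPM in KO and from 4050 to 1175 CPM in KI. Since a UMI counts a transcript by its 3′ end, no division by length was made in such comparisons of UMIs between genes.

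**Figure D2:**
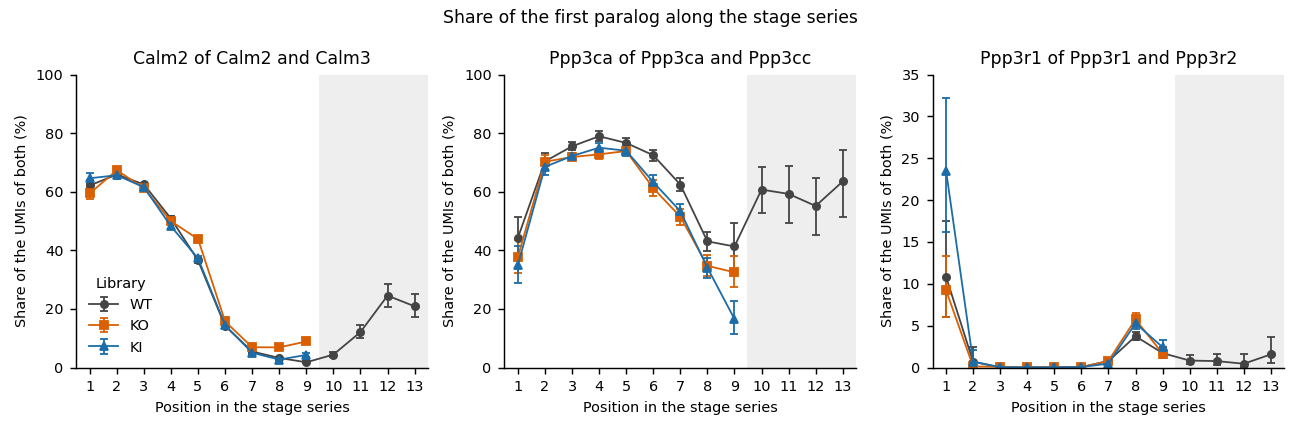
Share in percent of the first gene among the UMIs of both genes of a pair against the position in the stage series, with 95% exact binomial intervals, for the WT, KO and KI libraries and WT alone over the grey positions; the axis of the right panel ends at 35%. Calm2 went from 65.9% at position 2 to 3.28% at position 8 in WT, and Ppp3r1 was above 5% only at position 1 and, in KO and KI, at position 8.

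Among the catalytic subunits, Ppp3ca followed the spermatocytes. Its level was 81.1 CPM at position 1 in WT, 78.8 CPM in KO and 53.2 CPM in KI, and was highest at position 4 with 580, 482 and 512 CPM. It was 57.1 CPM in WT, 55.5 CPM in KO and 60.3 CPM in KI at position 8, a range within which the libraries could not be ordered. At position 9 it was 15, 21.1 and 8.71 CPM. Empty barcodes had 133 CPM of Ppp3ca in WT, 147 CPM in KO and 142 CPM in KI, above its levels at positions 1, 8 and 9. The part of free RNA in these was not tested. Positions 4, 5 and 3, the leading ones, had ranges over the libraries that overlapped from each to the next.

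Ppp3cc, the catalytic subunit known from sperm, had the flattest course of the 7 genes up to position 7. In WT it lay between 102 CPM at position 1 and 169 CPM at position 2 and was still 129 CPM at position 7. At position 8 it was 75.4 CPM in WT, 104 CPM in KO and 117 CPM in KI, and at position 9 it was 21.3, 43.9 and 43.8 CPM. WT was the lowest library at both of these positions. Empty barcodes had 75.6 CPM of Ppp3cc in WT, 104 CPM in KO and 101 CPM in KI. The levels at position 8 were close to these in WT and KO and above in KI. Those at position 9 were below in each library, and the part of free RNA in them was not tested. Of 8 neighbouring pairs in its order of levels, 6 overlapped between libraries, so its order over the spermatocyte positions was not resolved. Ppp3ca gave 78.9% of the UMIs of both catalytic genes at position 4 in WT, 72.8% in KO and 75.0% in KI. At position 8 its share was 43.1%, 34.7% and 34.1%, and Ppp3cc then gave most of the catalytic subunit transcripts in each library. Apart from Ppp3cc in KI, both genes were there close to or below their empty-barcode levels, and the part of free RNA in these shares was not tested.

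Among the regulatory subunits, Ppp3r1 was near 0 in the spermatocyte positions and highest after them. In the SG-like cells, 33 WT, 33 KO and 20 KI cells within the earliest cluster, it was at 20.2 CPM in WT, 42.4 CPM in KO and 32.1 CPM in KI, from 6, 14 and 17 UMIs in 3, 8 and 9 cells. Empty barcodes had 20.6, 21.6 and 25.3 CPM of it, so the WT level was close to that of the empty barcodes. In cluster 7, the largest source of SP-like UMIs, counts of 3 (WT), 13 (KO) and 9 (KI) gave 0.265, 0.600 and 0.511 CPM. At position 4 it had 0 UMIs in WT, which allows up to 0.917 CPM. It came to 36.3 CPM in WT, 49.7 CPM in KO and 47.9 CPM in KI at position 8 and to 7.39, 9.03 and 12.5 CPM at position 9. All 3 libraries thus had a level below 1.5 CPM at each of positions 2 to 6 and their highest level of the series at position 8. Wdr92, the gene that shares exon bases with it, went the other way, with 38.1 CPM in SP-like and 3.14 CPM in RS-like cells of WT.

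Ppp3r2, the regulatory subunit of sperm, was highest at position 5, where Ppp3r1 was below 1 CPM in each library. Its level was 43.8 CPM in the SG-like cells of WT, 145 CPM in those of KO and 35.8 CPM in those of KI. At position 2 it was 163, 295 and 194 CPM and at position 3 it was 1096, 1146 and 1055 CPM. It reached 1909 CPM in WT, 1919 CPM in KO and 1926 CPM in KI at position 5, where the libraries lay within each other's counting intervals. From there it fell to 934, 813 and 858 CPM at position 8 and 422, 535 and 501 CPM at position 9. In later WT cells it stood at 270 CPM at position 10, 157 CPM at position 12 and 204 CPM at position 13. Only 1 of the 8 neighbouring pairs in its order overlapped between libraries, that of positions 2 and 1. Empty barcodes had 1113 CPM of Ppp3r2 in WT, 1195 CPM in KO and 1018 CPM in KI. Its levels at positions 1, 2, 8 and 9 in each library were below these. So were those at position 3 in WT and KO and at positions 10 to 13 in WT. The part of free RNA in all of these was not tested.

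Ppp3r1 gave 10.9% of the UMIs of both regulatory genes at position 1 in WT, 9.23% in KO and 23.5% in KI. In the SG-like cells its share was 31.6%, 22.6% and 47.2%, from 19, 62 and 36 UMIs of both genes. In the other cells of the earliest cluster it was 6.08%, 3.99% and 7.14%. A part of 75 cells in that cluster was named from Sertoli cell markers. At positions 3 to 6 the share of Ppp3r1 was at most 0.0838% in any library. It came back at position 8, with 3.74% for WT, 5.76% for KO and 5.28% for KI, so Ppp3r2 remained the main regulatory transcript there. The transcripts of both regulatory genes together were fewer than those of both catalytic genes at positions 1 and 2 in each library, with 112 against 183 CPM and 165 against 570 CPM in WT. They exceeded them later, by 1910 against 700 CPM at position 5 and by 970 against 132 CPM at position 8 in WT.

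Camk4, the kinase gene, was highest in spermatids. In the SG-like cells it was at 91.0 CPM in WT, 69.7 CPM in KO and 168 CPM in KI, from 27, 23 and 89 UMIs, and KI was the highest library. Empty barcodes had 92.7, 70.0 and 74.1 CPM of it, and the WT and KO levels were close to these while the KI level was above. These cells also held 4648 CPM of Prm1 in WT, 364 CPM in KO and 88.6 CPM in KI, and the part of free RNA in their Camk4 was not tested. In cluster 7 Camk4 was at 2.82 CPM in WT, 1.43 CPM in KO and 0.454 CPM in KI. At position 7 it was at 34.4, 18.7 and 11.6 CPM, with WT the highest. Its highest level over the 9 positions, at position 8, was 204 CPM in WT, 187 CPM in KO and 164 CPM in KI, followed by 116, 109 and 95.2 CPM at position 9. It stood at 81.9 CPM at position 10 and 74.4 CPM at position 12 in WT, and at 29.9 CPM at position 13. These late levels were below the 92.7 CPM of the WT empty barcodes, and the part of free RNA in them was not tested. Ppp3r1 had 2 UMIs at position 12 and 5 UMIs, or 3.25 CPM, at position 13. The 5 lowest positions of Camk4, 6 and 2 to 5, overlapped between libraries and could not be ordered.

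After thinning each cell to 3000 UMIs, Camk4 was detected in 1 of 175 WT cells, 1 of 286 KO cells and 0 of 119 KI cells at position 3, the last of which allows up to 2.52% of cells with a UMI at that depth. Without thinning, 8.57% of WT, 3.15% of KO and 4.20% of KI cells there had a UMI of Camk4. At position 8 it was detected in 46.6% of 365 WT cells (exact binomial interval 41.4% to 51.8%), 43.6% of 204 KO cells and 36.1% of 97 KI cells, and the intervals of the 3 libraries overlapped. Without thinning these shares were 93.2%, 87.9% and 94.8%, at median depths of 13391, 15323 and 30684 UMIs. In the unnamed cluster 12, whose leading genes were somatic, thinned Camk4 was detected in 0 of 33 KO and 0 of 42 KI cells, which allows up to 9.09% and 7.14% at that depth. The median over all cells of the cluster, the 35 KO and 11 KI cells too shallow for thinning included, was 2743 and 5331 UMIs. Ppp3r2 was detected in 33.3% of these KO and 14.3% of these KI cells. Its shares at position 1 were 21.9% in WT, 38.0% in KO and 15.8% in KI, and no expression was read from them. At position 3 it was detected in 94.3% of WT, 91.3% of KO and 91.6% of KI cells.

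Ppp3r1 was detected in none of the thinned cells at position 3, which allows up to 1.71% of cells with a UMI for WT, 1.05% for KO and 2.52% for KI at that depth. Without thinning, 0.571% of WT, 3.15% of KO and 3.36% of KI cells there had a UMI of it. At position 8 it was detected in 8.22% of WT, 15.2% of KO and 11.3% of KI cells. Calm2 went from 100% of WT cells at position 3 to 7.40% at position 8, and from 99.7% to 12.3% in KO and 100% to 16.5% in KI. Its detected share in KI was thus the highest of the libraries at position 8 where its CPM was the lowest, so no order of the libraries was read from these shares. Calm3 was detected in 96.2%, 93.6% and 95.9% of cells at position 8.

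To set the members beside all genes, the SP-like clusters 4, 7 and 13 were compared with the RS-like clusters 1 and 3 within each library. Past 2-fold in all 3 libraries, 27.8% of 8894 genes were higher in SP-like cells and 25.8% higher in RS-like cells. The members had 2 in each direction, Calm2 and Ppp3ca in SP-like and Ppp3r1 and Camk4 in RS-like cells, and as they were chosen by this contrast nothing is read from the count. Calm2 was at 1495 CPM in SP-like and 64.6 CPM in RS-like cells of WT, a log2 ratio of −4.51 (−4.61 to −4.41), with −3.99 in KO and −4.88 in KI. Ppp3ca had log2 ratios of −2.11, −2.17 and −2.05. Ppp3r1 had 3.92, 4.43 and 4.33, and Camk4 had 5.43, 5.54 and 6.29, all with 1 CPM added. With 10 CPM added, Ppp3r1 had 1.86, 2.09 and 1.95 and Camk4 had 3.82, 3.63 and 3.63. The size of these ratios, and the order of the libraries in them, thus depended on the CPM added. Calm3 (−0.34, −0.47 and −0.40), Ppp3cc (−0.71, −0.52 and −0.40) and Ppp3r2 (−0.45, −0.61 and −0.48) stayed within 2-fold in each library. With cells clustered without integration, Ppp3cc was past 2-fold in each library (−1.13, −1.29 and −1.19). Ppp3r2 was then past it in KO (−1.22) and KI (−1.26). The median over the 7 members was −0.45 for WT, −0.52 for KO and −0.40 for KI, beside −0.47, −0.29 and −0.27 over all genes.

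The genes whose course over 37 points of clusters and libraries was most like that of a member were found among 6413 genes. They were Catsperz (r = 0.99) and Prdx6b (r = 0.98) for Ppp3r2, Mphosph8 (r = 0.98) and Ssna1 (r = 0.97) for Calm2, Cops5 (r = 0.97) for Calm3 and Rexo2 (r = 0.96) for Ppp3ca. Ppp3cc was most like Usp8 (r = 0.97) and Ubxn4 (r = 0.97), and Camk4 most like M1ap (r = 0.93) and Chd5 (r = 0.92). Ppp3r1 had the weakest likeness, with Pgrmc1 at r = 0.88. The points share libraries and differ in depth, and the correlations on the log2 scale are given as a description.

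The study asked how loss of GRTH or of its phosphorylated form changes germ cells, so the members were compared with WT within RS-like and SP-like cells. In RS-like cells, Calm2 was the 1 member of 7 past 1.5-fold higher in KO, where 16.3% of 8247 genes were. It was at 107 CPM in KO and 64.6 CPM in WT (log2 ratio 0.72, interval 0.59 to 0.85), and at 54.2 CPM in KI (−0.25, −0.41 to −0.09), so the mutants lay on either side of WT. The KO ratio was within 1.5-fold with TMM scaling, with cells called by their UMI total alone and in cluster 3 alone (0.48), whereas subtraction of the empty-barcode profile gave 1.35 in KO and 0.25 in KI. No member was past 1.5-fold lower in KO (8.68% of genes), higher in KI (20.4%) or lower in KI (11.8%). Under other processing 1 member passed that fold in KI. It was Camk4 on the lower side with TMM scaling (−0.72) and in cluster 3 alone (−0.60), Ppp3ca on the lower side without integration (−1.05) and Ppp3cc on the higher side at a finer clustering (0.62). A share of 1 in 7 is near the background of all genes.

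Camk4 was at 175 CPM in RS-like cells of WT, 138 CPM in KO (−0.34, −0.44 to −0.24) and 121 CPM in KI (−0.53, −0.63 to −0.42). It was lower in both mutants but within 1.5-fold. Ppp3cc was higher in both, at 92.1 CPM in WT, 117 CPM in KO (0.34, 0.22 to 0.46) and 128 CPM in KI (0.47, 0.35 to 0.58), but with cells clustered without integration its ratios were −0.03 and 0.09. Empty barcodes also had the least Ppp3cc in WT, with 75.6 CPM beside 104 CPM in KO and 101 CPM in KI. The 10 alternative ways of processing included subtraction of the empty-barcode profile. Over them the ratios of Ppp3cc ran from −0.03 to 0.44 in KO and from 0.09 to 0.62 in KI. Beyond that subtraction, the part of free RNA in its differences was not tested. Ppp3ca was at 106, 92.5 and 104 CPM, Calm3 at 1356, 1174 and 1235 CPM, Ppp3r2 at 1039, 933 and 969 CPM and Ppp3r1 had 382, 333 and 277 UMIs (log2 ratios 0.24 and 0.05). The median log2 ratio of the members was −0.16 in KO and −0.10 in KI, beside 0.17 and 0.18 over all genes. With TMM scaling the median of all genes was −0.03 in KO and −0.01 in KI, a shift of −0.20 and −0.19, so the differences of Ppp3cc in RS-like cells were 0.14 and 0.28 on that scale and those of Camk4 −0.54 and −0.72, the latter past 1.5-fold.

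**Figure D3:**
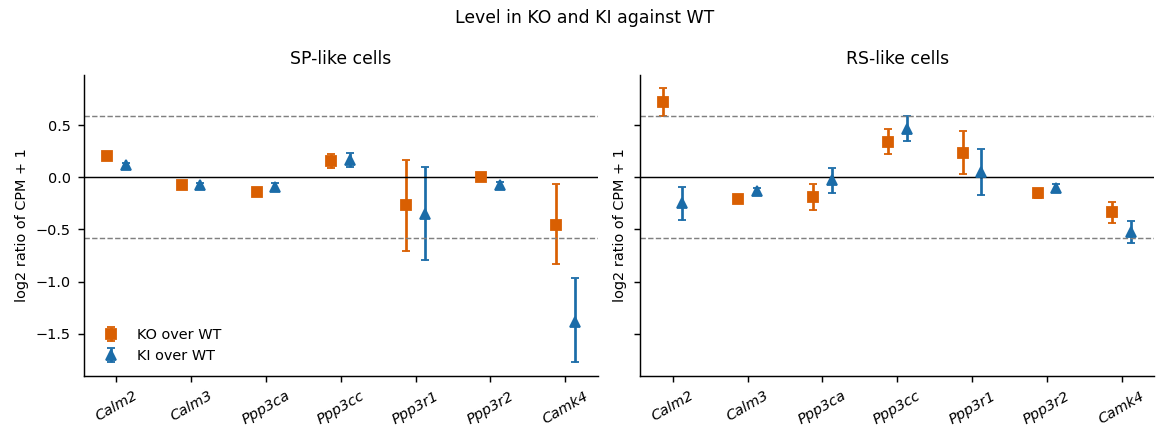
Log2 ratio of CPM + 1 in KO and in KI over WT for each of the 7 genes, in SP-like cells on the left and RS-like cells on the right, with 95% counting intervals as bars and 1.5-fold as dashed lines. In RS-like cells Calm2 lay at 0.72 in KO and −0.25 in KI, and in SP-like cells Camk4 rested on 57 UMIs in KO and 14 in KI.

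The RS-like cells of the mutants also differed in their stage markers. The 12 SP markers summed to 516 CPM in WT, 794 CPM in KO and 779 CPM in KI, 11 being higher in KO and 8 in KI, and none was at 0. The 11 ES markers summed to 24974, 8319 and 5494 CPM and each was lower in both mutants. The low-UMI cluster 1 gave 9.32%, 12.4% and 8.14% of the RS-like UMIs. Whether these markers or cells have a part in the differences of Calm2, Ppp3cc and Camk4 was not tested.

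In SP-like cells the 5 members measured at 10 CPM or more, all but Ppp3r1 and Camk4, lay between −0.14 and 0.20 in log2 ratio in KO and −0.10 and 0.16 in KI. None was past 1.5-fold in either direction, where 0.777% of 7981 genes were higher and 5.69% lower in KO, and 1.08% higher and 5.73% lower in KI. Camk4 was below that level, with 59 UMIs in WT (3.09 CPM), 57 in KO (1.98 CPM) and 14 in KI (0.560 CPM). Calm2 was at 1495 CPM in WT, 1719 CPM in KO and 1619 CPM in KI. Cluster 7 gave 59.3% of the SP-like UMIs of WT, 75.4% of those of KO and 70.5% of those of KI, and within it Calm2 was lower in both mutants, at 2218, 2089 and 2084 CPM (−0.09 in each). Cluster 4, where Calm2 is falling, had 438 CPM in WT, 556 CPM in KO and 496 CPM in KI.

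**Figure D4:**
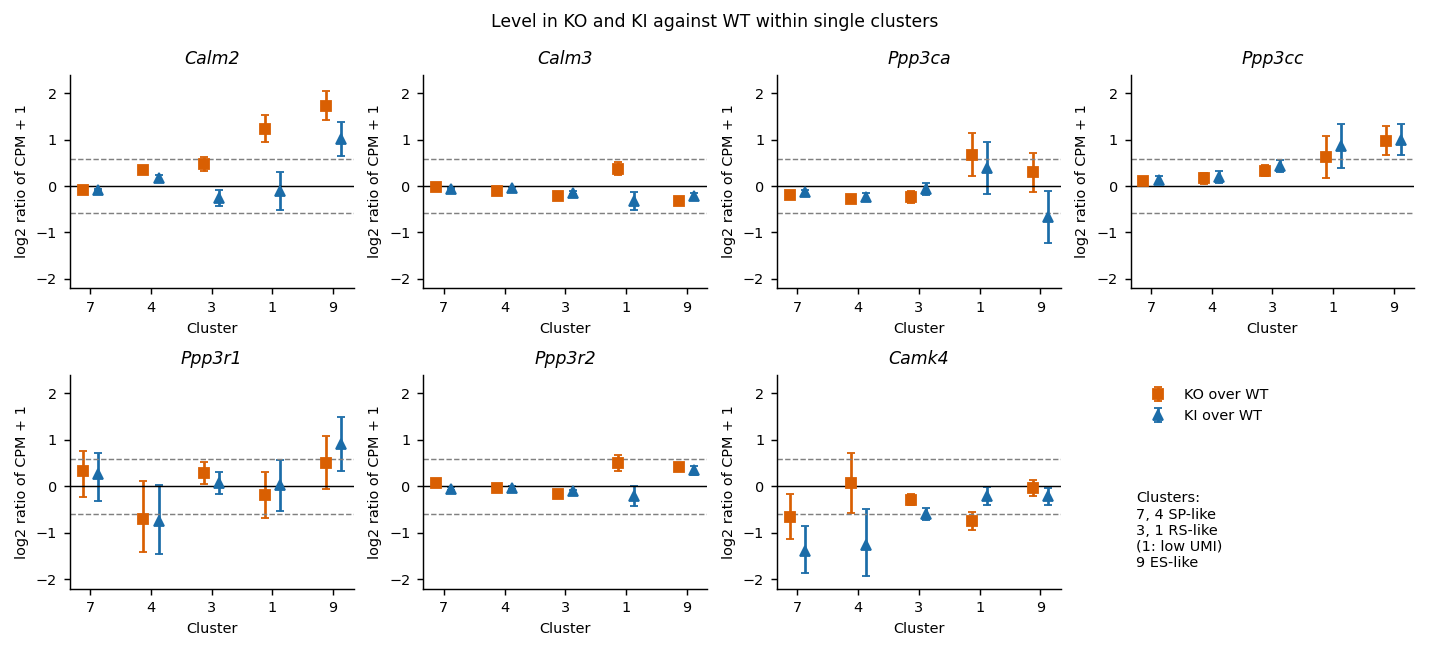
Log2 ratio of CPM + 1 in KO and KI over WT within the SP-like clusters 7 and 4, the RS-like clusters 3 and 1 and the ES-like cluster 9, for each of the 7 genes, with 95% counting intervals as bars and 1.5-fold as dashed lines. Calm2 went from −0.09 in cluster 7 to 1.73 in cluster 9 in KO, and Ppp3cc from 0.12 in cluster 7 to 0.98 in KO and 0.996 in KI in cluster 9.

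Within the single clusters, the differences of Ppp3cc in both mutants and of Calm2 in KO were larger in cluster 9 than in clusters 7, 4 and 3. In cluster 3, which gave most RS-like UMIs, Calm2 was at 59.1 CPM in WT, 82.6 CPM in KO and 49.2 CPM in KI. It was at 119, 280 and 110 CPM in the low-UMI cluster 1 and at 17.8, 61.3 and 37.1 CPM in the ES-like cluster 9. Ppp3cc was at 95.7, 121 and 130 CPM in cluster 3 and at 21.4, 43.2 and 43.8 CPM in cluster 9, where both mutants had log2 ratios near 1. Ppp3r2 was lower in the mutants in cluster 3, at 1103, 981 and 1022 CPM, and higher in cluster 9, at 394, 528 and 500 CPM. Calm3 was lower in both clusters, at 948, 754 and 818 CPM in cluster 9. In that cluster the 11 RS markers summed to 2409 CPM in WT, 6293 CPM in KO and 5843 CPM in KI and were each higher in both mutants, and Acrv1 was at 133, 500 and 459 CPM. The 11 ES markers summed to 239077, 91138 and 89227 CPM and were each lower in both mutants. The part of these markers and of free RNA in the differences of the members was not tested.

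Camk4 had its highest levels of any cluster in the low-UMI RS-like cluster 1, which held 662 WT, 667 KO and 242 KI cells and was led by Pcdh9 and Tmem190, with Acrv1 among its leading genes. It was at 502 CPM in WT, 300 CPM in KO and 436 CPM in KI there, against 141, 115 and 93.0 CPM in cluster 3. Ppp3r1 was also higher there, at 59.8, 52.3 and 60.7 CPM against 26.9, 33.1 and 28.5 CPM. The other members were lower in cluster 1 of WT than in cluster 3, Calm3 with 605 against 1434 CPM and Ppp3r2 with 420 against 1103 CPM, except Calm2, which was higher in cluster 1 in each library. Empty barcodes of WT had 92.7 CPM of Camk4 and 20.6 CPM of Ppp3r1, so free RNA held less of both genes than these cells.

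Other genes of calcium signalling were taken as 4 lists and set beside the members. The list of calcineurin partners and their relatives had 17 genes, of which 7 were measured. Of these, 0 were past 2-fold higher in RS-like cells in all libraries, where 25.8% of all genes were. In SP-like cells 3 were higher, where 27.8% of all genes were. They were Ppp3cb, the other catalytic subunit (43.4 CPM in SP-like and 7.70 CPM in RS-like cells of WT), Ppia, the cyclophilin through which cyclosporin blocks calcineurin (1792 and 768 CPM), and the transcription factor gene Nfat5 (34.5 and 5.10 CPM). Ppp3cb was past 1.5-fold higher in both mutants in RS-like cells, with log2 ratios of 0.97 in KO and 1.32 in KI. Cabin1, an inhibitor of calcineurin, had ratios of 0.73 and 0.82, and Chp1 was past 1.5-fold in KO alone. For the 6 genes of this list measured in RS-like cells the median stood at 0.42 for KO and 0.29 for KI.

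Of 8 CaM kinases and regulators measured among 23, Camk2g and Mylk were higher in SP-like cells and Camkk2, an activating kinase of CAMK4, was higher in RS-like cells. Camkk2 was at 2.88 CPM in SP-like and 25.4 CPM in RS-like cells of WT, 1.32 and 16.9 CPM in KO and 1.52 and 19.1 CPM in KI, and so went in the same direction as Camk4. In RS-like cells Mylk and the CaMKII inhibitor gene Camk2n2 were past 1.5-fold higher in both mutants, and the median of the 7 measured was 0.18 in KO and 0.14 in KI. In SP-like cells Camk1d was past 1.5-fold lower in both mutants.

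Of 11 calmodulin-binding genes measured among 26, the phosphodiesterase gene Pde1c (377 and 82.1 CPM in WT) and Strn4 were higher in SP-like cells, and Pde1a (52.5 and 280 CPM) and Nrgn (1.46 and 34.5 CPM) in RS-like cells. Iqcg and Strn3 were past 1.5-fold higher in RS-like cells of both mutants. Of 8 genes of calcium release and pumps measured among 20, Stim1, the calcium sensor of the endoplasmic reticulum (154 and 21.0 CPM), and the pump genes Atp2a2 and Atp2b4 were higher in SP-like cells, and Plcz1, the sperm phospholipase of egg activation (41.5 and 164 CPM), in RS-like cells. Stim1 and the release channel gene Ryr3 were past 1.5-fold higher in RS-like cells of both mutants, Orai1 and Atp2a2 higher in KO alone and Atp2c1 lower in KI alone. The medians of this list were 0.59 in KO and 0.43 in KI. The lists were chosen with earlier results of these libraries known, and their counts stand beside the stage shares given above for all genes. In RS-like cells 16.3% of all genes were higher and 8.68% lower in KO, and 20.4% higher and 11.8% lower in KI. In SP-like cells 5.69% were lower in KO and 5.73% in KI. The medians of the lists in RS-like cells stand beside 0.17 in KO and 0.18 in KI over all genes. Of the calls there, Iqcg and Strn3 in both mutants and Cabin1, Camk2n2, Stim1 and Atp2a2 in KO lay above 1.5-fold by less than the TMM shift. Of the list genes higher in RS-like cells of both mutants, Ppp3cb, Cabin1, Mylk, Stim1, Iqcg and Strn3 had higher levels in SP-like than in RS-like cells of each library. Camk2n2 and Ryr3 had this order in WT alone. In KO and KI, Camk2n2 was at 22.1 and 23.0 CPM in SP-like but 25.5 and 30.9 CPM in RS-like cells. Ryr3 was at 15.5 and 16.7 CPM in SP-like but 22.0 and 26.8 CPM in RS-like cells. The SP markers were higher in sum in the RS-like cells of the mutants, as given above. The part of these markers in the differences of the lists was not tested.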

How the data were processed

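The deposited files hold raw UMI counts per gene and barcode, which the authors made with Cell Ranger (2.1.1 in the submitters' processing notes, 4 in the file headers) on mm10 and which were not normalized or filtered. Cells were called here by UMI total and by difference from empty barcodes, and cells of over 500 genes and under 10% mitochondrial UMIs were kept. They were integrated by SCTransform (R 4.3.3, Seurat 5.3.0, sctransform 0.4.2) with 2000 variable genes, from which the members and lists were left out, and 100 components, and clustered with Leiden at a resolution of 0.3 and, for the stage series, 0.8 (Python 3.11.15, scanpy 1.11.5, leidenalg 0.10.2). Clusters were named by the mean log2 fold of marker genes, with at least 3 markers up, a score of at least 0.3 and a lead of 0.1; this rule was chosen after the clusters were seen. Class sums of UMIs were expressed as CPM within each library. Log2 ratios were taken with 1 CPM added. Genes needed a mean of 10 CPM over the sums of a contrast. Intervals are exact Poisson for levels, derived from these for ratios, and Clopper-Pearson for shares, and the limit that a count of 0 allows is 3 counts of the total. Called means past 2-fold between stages in all 3 libraries or past 1.5-fold against WT. TMM factors came from edgeR 4.0.16. Doublets were not removed, except as an alternative, since Scrublet marked 2.80% of WT but 0.123% of KO and 0.763% of KI cells.

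The text names all 7 members, the genes of the 4 lists that were called, and for each member the genes of highest r. The members, lists and tests were chosen with earlier results of these data known. The authors deposited 1 library per genotype, so no test across samples was run.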

Additional observations from a re-analysis of the deposited data

How the results depend on the processing

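Of the 10 alternatives, 7 were planned and 3 were added after seeing the data: shared barcodes left out, the empty-barcode profile subtracted, and clusters 7 and 3 alone. The 2 members higher in SP-like cells and the 2 higher in RS-like cells numbered 2 and 2 under each. The count of members past 1.5-fold higher in KO in RS-like cells, 1 in the text, was 0 with TMM size factors, 0 with cells called by UMI total alone and 0 with clusters 7 and 3 alone. Members past 1.5-fold higher in KI there numbered 1 at a resolution of 0.8. Members past 1.5-fold lower in KI there numbered 1 with TMM size factors, 1 with no integration and 1 with clusters 7 and 3 alone. In SP-like cells 1 member, Camk4, was past 1.5-fold lower in KI with no low-level filter. The cause of these changes was not tested, except that the last alternative admits genes under 10 CPM. The Calm2 ratio of KO over WT in RS-like cells ranged from 0.48 to 1.35 and that of KI from −0.44 to 0.25, where it turned positive with the empty-barcode profile subtracted. Camk4 ranged from −0.54 to −0.28 in KO and from −0.72 to −0.34 in KI. The ratios of Ppp3cc were −0.03 in KO and 0.09 in KI with no integration. Among all genes in RS-like cells, 16.3% were past 1.5-fold higher and 8.68% lower in KO, but 8.03% and 14.8% with TMM size factors, and 20.4% and 11.8% in KI, but 11.03% and 17.6%. The share higher was 7.65% in KO and 11.4% in KI with a pseudocount of 10 CPM, and 26.0% in KO at a resolution of 0.8. In SP-like cells the shares higher were 0.175% in KO and 0.388% in KI with that pseudocount and 0.465% in KO with no integration, and the shares lower ranged down to 1.59% in KO and 2.14% in KI. With no low-level filter 15.2% and 15.9% of genes were past 2-fold between the stages. No paired analysis was possible because each genotype has 1 library. Depth limits Ppp3r1 and Camk4 in SP-like cells, which rest on 14 to 59 UMIs per library.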

Other observations

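The unnamed clusters outside the stage and genotype ratios also held the 7 genes. The unnamed cluster 8, of 532 WT, 134 KO and 113 KI cells with low UMIs, was led by Calm2, Cks2 and Sycp3. It had 1604 CPM of Calm2 in WT, 2023 CPM in KO and 2261 CPM in KI, beside 1459, 1619 and 1466 CPM of Ppp3r2 and 3.99 CPM of Ppp3r1 (7 UMIs) in WT. The unnamed cluster 12, led by Lcn2, Ptgds, Gstm1 and Dcn, had 96.8 CPM of Ppp3r1 in WT, 31.9 CPM in KO and 45.4 CPM in KI, and Camk4 had 2, 4 and 0 UMIs there. In cluster 12 Ppp3ca was at 250 CPM in WT, 290 CPM in KO and 345 CPM in KI. Of the 7 genes it was second to Calm3 there in KI and KO.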
